A study of Sus scrofa with 6 samples.

Results

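Hemoglobin and erythroid mRNAs were followed in the lung of fetal and neonatal piglets. They were chosen by symbol: the globins HBB, HBA2, HBM and HBZ, and, beside the globins, the erythroid genes AHSP, ALAS2, SLC4A1, GATA1, KLF1 and EPB42. Of these 10 symbols, 9 had a row among the 14579 mRNAs of the deposited table. AHSP, which encodes the chaperone of free alpha-globin, had no row under its pig Ensembl identifier and was not analysed here. The 6 female piglets were crosses of Tibetan sires and Meishan dams. The fetal group held 3 piglets taken on the last day before birth, each from its own sow, and the neonatal group held 3 piglets taken 2 days after birth from other sows. Each library came from 1 piglet. The animals were killed by exsanguination under ketamine, and no step that removes blood from the lung is described in the sources used here.

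Each red cell is filled with hemoglobin, a tetramer of alpha-type and beta-type globin chains that carry heme. Erythroblasts build it in the fetal liver and later in the bone marrow, under the transcription factors GATA1 and KLF1, while ALAS2 starts heme synthesis in these cells. Reticulocytes still hold much globin mRNA when they enter the blood, so RNA of a blood-filled organ such as the lung carries it too. In such bulk tissue, fewer red cells and less RNA per red cell cannot be told apart.

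All values are FPKM, fragment numbers scaled to transcript length and to the mapped fragments of the library, so levels can be set beside each other per length of transcript. The table holds no read counts, and the spread between the 3 piglets of a group is the error given. Summed over all mRNAs, FPKM lay between 339491 in Fetal2 and 777982 in Neonatal3, and each neonatal sum exceeded each fetal one, whereas the median FPKM of a sample lay between 4.99 and 6.11. Differences were fitted in limma on log2(FPKM + 1), neonatal minus fetal, with Benjamini-Hochberg adjustment over all mRNAs and a threshold of 0.05 on the adjusted p. The lung epithelial markers SFTPC, from 3171 to 8790 FPKM, and AGER, from 396 to 767 FPKM, were high in every library, while NKX2-1 and HOPX had no row under their symbols.

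No globin or erythroid gene passed this test: the count was 0 of 9, against 6.87% of all mRNAs. An unadjusted p under 0.05 was reached by 2 of 9, HBM and KLF1, against 24.2% of all mRNAs. HBB and HBA2, which hold nearly all FPKM of the 4 globins, had lower neonatal means, and so did ALAS2, GATA1 and EPB42. HBM, KLF1, SLC4A1 and HBZ had higher ones. The neonatal values lay wholly above the fetal values for 1 of 9, KLF1 (20.9% of all mRNAs), and wholly below for 0 of 9 (9.64% of all mRNAs). KLF1 exceeded 0.5 FPKM, the filter of the table, in neonatal samples alone, so a higher neonatal level was favoured by that filter.

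**Figure D1:**
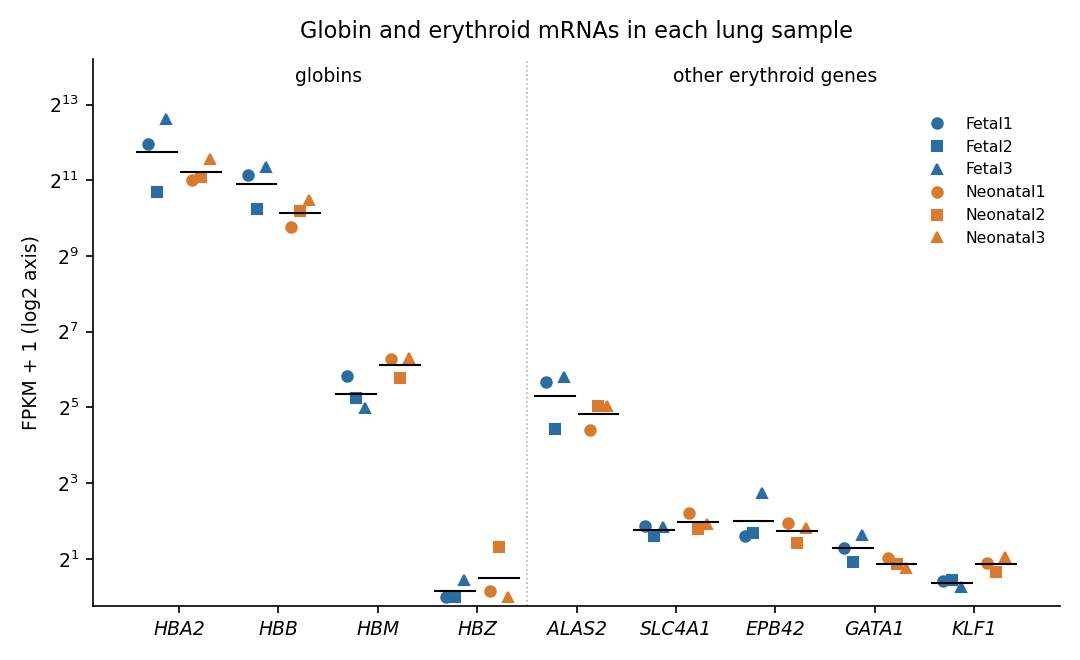
FPKM + 1 on a log2 axis for the 9 genes in each of the 6 samples, with fetal samples in blue, neonatal samples in orange and the group mean of the log values as a black line. HBA2 and HBB stand highest in every sample, and only KLF1 has every neonatal value above every fetal one. KLF1 exceeded 0.5 FPKM, the filter of the table, in neonatal samples alone.

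HBA2 (ENSSSCG00000007978), one of the alpha-globin genes, was the most abundant of the 9 mRNAs in every sample. It was measured at 3947, 1644 and 6328 FPKM in Fetal1, Fetal2 and Fetal3. In the neonatal samples it stood at 2042, 2184 and 3038 FPKM. Fetal3 was highest and Fetal2 lowest of all 6 samples, so the neonatal values fell inside the fetal range. The group means were 3973 ± 2342 and 2421 ± 539 FPKM (SD, n = 3 each). The difference was -0.53 on the log2 scale (standard error 0.62, adjusted p = 0.635 in limma), with a 95% interval from -1.98 to 0.92. Among all mRNAs of a sample its place ranged from 8 to 44. The alpha-globin genes are near-identical copies, so reads may be shared between them and the level of a single copy is uncertain.

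HBB (ENSSSCG00000014725) is the beta-globin gene. Its FPKM was 2260 in Fetal1, 1201 in Fetal2 and 2612 in Fetal3. After birth it was 866 in Neonatal1, 1169 in Neonatal2 and 1422 in Neonatal3. The fetal samples kept the order seen for HBA2, with Fetal2 low, and Fetal2 alone of the fetal samples lay among the neonatal values. Means of 2024 ± 734 FPKM before and 1152 ± 278 FPKM after birth (SD, n = 3 each) gave a ratio of 0.569. The log2 difference was -0.77 (standard error 0.46, adjusted p = 0.346 in limma), with a 95% interval from -1.84 to 0.30. Its place among all mRNAs ranged from 18 to 90.

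HBM (ENSSSCG00000007977) encodes the mu chain, an alpha-like globin of the same cluster. Its fetal values were 56.2, 36.7 and 30.7 FPKM, and its neonatal values 77.2, 54.1 and 78.5 FPKM. Fetal1 and Neonatal2 overlapped, and the other neonatal values lay above all fetal ones. In contrast to HBA2 and HBB, the neonatal mean was the higher one, at 69.95 ± 13.7 against 41.2 ± 13.3 FPKM (SD, n = 3 each). The log2 difference was 0.78 (standard error 0.28, unadjusted p = 0.0244 and adjusted p = 0.142 in limma), and it was 0.45 after quantile normalization and 0.19 with the samples at equal sums of FPKM. In the reference gene table of Sscrofa11.1, HBM and HBZ are direct neighbours, with 0 loci between them.

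HBZ (ENSSSCG00000007975), the embryonic zeta chain, was close to the floor of the table. It was listed at 0 in Fetal1, Fetal2 and Neonatal3, at 0.357 FPKM in Fetal3, at 0.105 FPKM in Neonatal1 and at 1.48 FPKM in Neonatal2. Neonatal2 alone exceeded 0.5 FPKM, the authors' limit for an expressed mRNA, so HBZ is in the table through this 1 sample. Without Neonatal2 its log2 difference of 0.34 turned to -0.075.

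HBA2 and HBB together held between 97.4% and 99.7% of the FPKM of the 4 globins. As a share of the summed FPKM of all mRNAs, the 4 globins made up 1.47%, 0.849% and 1.90% in Fetal1, Fetal2 and Fetal3. In Neonatal1, Neonatal2 and Neonatal3 they made up 0.607%, 0.564% and 0.583%. On this scale the groups did not overlap, and the SD was 0.530 percentage points in the fetal and 0.0215 in the neonatal group (n = 3 each). In FPKM the same sum went from 2882 to 8971 in the fetal and from 2985 to 4539 in the neonatal samples, which overlap. The neonatal minus fetal difference in the share was -0.823 percentage points, and leaving out single samples moved it between -1.10 and -0.576. With the other mRNAs among the 100 highest left out of the sum it was -1.27. Each neonatal library had a larger summed FPKM than each fetal one, and the part of this in the difference was not tested.

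**Figure D2:**
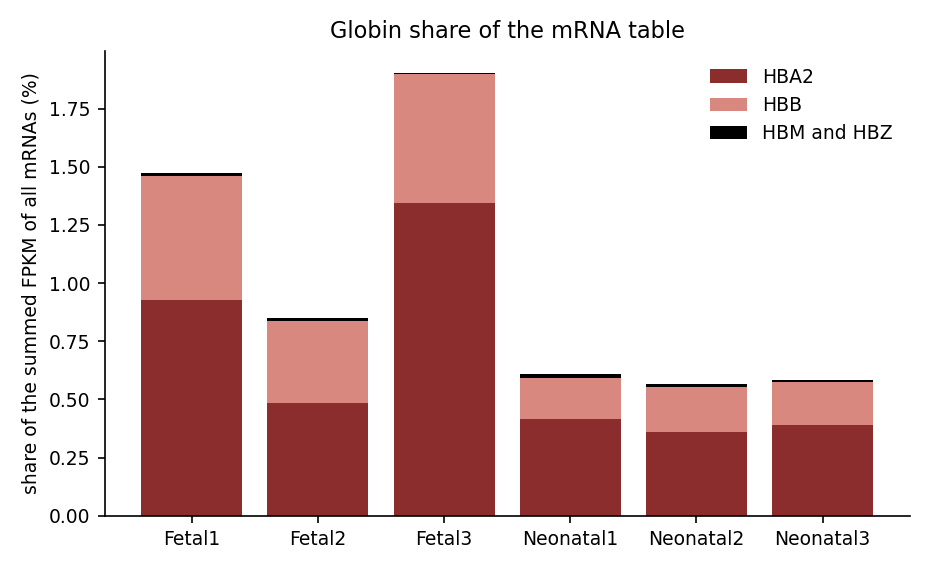
Stacked bars give HBA2, HBB, and HBM with HBZ as a percentage of the summed FPKM of all mRNAs, 1 bar for each sample. The fetal bars reach 0.849% to 1.90% and the neonatal bars 0.564% to 0.607%.

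Among the genes beside the globins, ALAS2 (ENSSSCG00000012347) was the highest. It encodes the erythroid form of 5-aminolevulinate synthase, the first enzyme of heme synthesis. Its FPKM was 49.9, 20.5 and 54.5 in the fetal samples and 20.2, 32.1 and 31.9 in the neonatal samples. Fetal2 was again low and lay beside Neonatal1, while Fetal1 and Fetal3 lay above all neonatal values. The log2 difference was -0.47 (standard error 0.39, adjusted p = 0.497 in limma), with a 95% interval from -1.37 to 0.44.

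The membrane genes were low. SLC4A1 (ENSSSCG00000017358) encodes band 3, the anion exchanger of the red cell membrane, and stood at 2.64, 2.06 and 2.59 FPKM before birth and at 3.60, 2.48 and 2.78 FPKM after it. In the fetal group it had the smallest coefficient of variation of the 9, 13.2%. Its log2 difference was 0.20 (adjusted p = 0.576 in limma). EPB42 (ENSSSCG00000004714) encodes protein 4.2, which links band 3 to the membrane skeleton. Its fetal values were 2.05, 2.19 and 5.70 FPKM, and its neonatal values 2.88, 1.66 and 2.55 FPKM. Fetal3 stood far above the rest, and the log2 difference of -0.28 (adjusted p = 0.653 in limma) was 0.089 without it.

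The means of the erythroid transcription factors differed in opposite directions, neither past the threshold. GATA1 (ENSSSCG00000027237), the factor on which red cell maturation depends and which megakaryocytes and mast cells also use, stood at 1.45, 0.880 and 2.097 FPKM before birth. After birth it stood at 1.02, 0.820 and 0.686 FPKM, and Fetal2 fell among these values. The log2 difference was -0.40 (standard error 0.24, adjusted p = 0.352 in limma). KLF1 (ENSSSCG00000013730), an activator of the beta-globin gene, had fetal values of 0.341, 0.349 and 0.194 FPKM and neonatal values of 0.867, 0.566 and 1.08 FPKM. The groups did not overlap, and the log2 difference was 0.50 (standard error 0.21, unadjusted p = 0.0467 and adjusted p = 0.199 in limma). No fetal value of KLF1 exceeded the limit of 0.5 FPKM, and the same holds for HBZ, so these 2 of the 9 genes are in the table through their neonatal values.

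The median log2 difference was -0.097 over the 4 globins and -0.28 over the 5 other genes, beside 0.13 over all mRNAs. Of the 4 globins, 2 had a higher and 2 a lower neonatal mean, and of the 5 others 2 a higher and 3 a lower one. Globins and other erythroid genes thus each held members on both sides, and no test was made between them. Of the members with higher neonatal means, HBZ and KLF1 passed the filter of the table through their neonatal values alone. The medians and counts given here include both.

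Within the fetal group, HBB, HBA2, ALAS2 and GATA1 were each highest in Fetal3 and lowest in Fetal2. Relative to the fetal mean on the log2 scale, Fetal2 stood at -0.68 for HBB, -1.07 for HBA2, -0.87 for ALAS2 and -0.37 for GATA1. HBM was lowest in Fetal3, at -0.37, and KLF1 too, at -0.11. Fetal2 also had the smallest summed FPKM of the 6 samples, and its part in the low values was not tested. The spread was wider before birth than after it for HBA2, whose highest fetal value was 3.85 times its lowest, against 1.49 times in the neonatal group. For ALAS2 these ratios were 2.66 and 1.59, and for HBB 2.17 and 1.64.

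The likeness of profiles was measured as the root mean square difference between log2(FPKM + 1) values centred on their mean over the 6 samples, where 0 is an identical profile. HBB and ALAS2 were the closest of all pairs among the 9 genes, at 0.199, and ALAS2 held place 5 of 8710 mRNAs with a symbol and a mean of at least 1 FPKM in likeness to HBB. The pair HBA2 and ALAS2 differed by 0.258 and the pair HBA2 and HBB by 0.283. HBM was far from both, at 0.943 from HBA2 and 0.920 from HBB, where the median of the mRNAs compared with HBB was 0.644. Its nearest neighbour among the 9 was KLF1, at 0.268. Beyond the 9 genes, the 5 mRNAs nearest to HBB were CETN3, MMRN1, SPARCL1, CTSV and SENP8, at 0.161 to 0.207. MMRN1 encodes multimerin of platelets and endothelium, and SPARCL1 a matrix protein. For ALAS2 they were LIPG, SENP8, UBE2H, SPARCL1 and LRP11, at 0.180 to 0.211. These places describe 6 samples that share the fetal and neonatal grouping, and low mRNAs are drawn toward small differences by the pseudocount.

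Ratios of 2 mRNAs within a library, here from FPKM as deposited, do not change when a library is multiplied by a single factor, though quantile normalization does change them. HBB stood at 0.573, 0.730 and 0.413 times HBA2 in the fetal samples and at 0.424, 0.535 and 0.468 times in the neonatal samples, so the ratio of beta to alpha globin overlapped. ALAS2 made up 2.21%, 1.71% and 2.09% of HBB before birth and 2.33%, 2.74% and 2.25% after it. These 2 ranges did not meet, but they lie side by side, with 2.21% the highest fetal and 2.25% the lowest neonatal value. HBM made up 1.42%, 2.23% and 0.484% of HBA2 in the fetal samples and 3.78%, 2.48% and 2.59% in the neonatal samples. Its share of HBA2 was thus 1.38% ± 0.876 and 2.95% ± 0.724 (SD, n = 3 each), without overlap. KLF1 stood at 0.236, 0.396 and 0.0927 times GATA1 before birth and at 0.854, 0.690 and 1.57 times after it, also without overlap. Both mRNAs of this last ratio are low, and KLF1 exceeded 0.5 FPKM, the filter of the table, in neonatal samples alone. These pairs were chosen after the values had been seen, and no test was made of them. With 3 animals against 3, an exact permutation test could not give a two-sided p below 0.1.

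**Figure D3:**
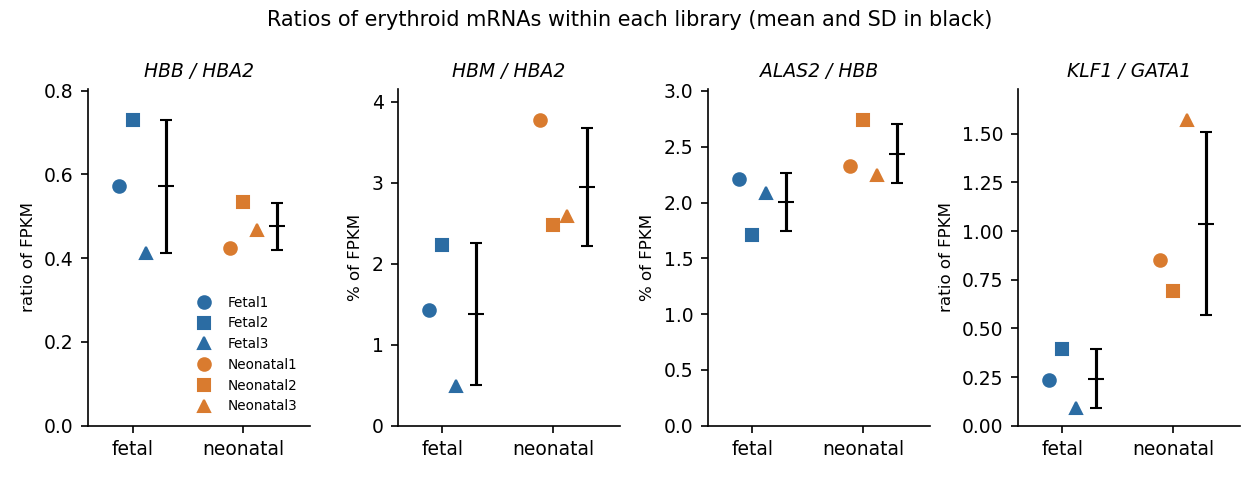
Ratios of FPKM within each library for HBB over HBA2, HBM over HBA2, ALAS2 over HBB and KLF1 over GATA1, with 1 symbol for each sample and the mean and SD of the 3 samples of a group in black. The neonatal points lie above the fetal points for HBM over HBA2, KLF1 over GATA1 and, narrowly, ALAS2 over HBB. The groups overlap for HBB over HBA2. KLF1 exceeded 0.5 FPKM in neonatal samples alone.

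The difference in HBB depended on how the samples were scaled. With median-of-ratios scaling, which sets the median gene of each sample equal, HBB was measured at 2241, 1322 and 2762 in the fetal and at 865, 1077 and 1232 in the neonatal samples, in scaled FPKM. The groups then did not overlap, and the log2 difference was -0.94 (adjusted p = 0.193 in limma), and 0 of 9 genes passed, against 6.76% of all mRNAs. With quantile normalization, which gives all samples the same set of values, it was -1.38 (adjusted p = 0.0260), and 1 of 9 genes passed, against 7.92% of all mRNAs. With the samples brought to the same sum of FPKM without the globins, it was -1.37 (adjusted p = 0.0266), and 1 of 9 passed, against 7.94% of all mRNAs. Neither call held with any 1 of the 6 samples left out, while the difference lay between -1.62 and -1.28 under quantile normalization and between -1.58 and -1.24 at equal sums. The adjusted p then lay between 0.0531 and 0.1001 under quantile normalization and between 0.0575 and 0.112 at equal sums. Of all mRNAs, between 259 and 702 then passed under quantile normalization and between 105 and 738 at equal sums, against 1155 and 1158 with all samples.

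These scalings also moved the other mRNAs. The median log2 difference of all mRNAs was 0.13 on FPKM as deposited, -0.0090 after median-of-ratios scaling, -0.038 after quantile normalization and -0.32 at equal sums. Of all mRNAs, 789 were higher and 212 lower past the threshold on deposited FPKM, 650 and 335 after median-of-ratios scaling, 669 and 486 after quantile normalization, and 317 and 841 at equal sums. Relative to this median, HBB stood at -0.89, -0.94, -1.34 and -1.04 under the 4 scalings in this order. HBA2 stood at -0.66, -0.70, -1.12 and -0.81, and ALAS2 at -0.59, -0.63, -0.69 and -0.72. HBM stayed above the median, at 0.65, 0.61, 0.49 and 0.51, and so did KLF1, at 0.37, 0.44, 0.46 and 0.62. KLF1, however, is in the table through its neonatal values alone. SLC4A1 lay close to the median, between 0.073 and 0.13, although its own difference changed from 0.20 to -0.23 at equal sums. The count of genes whose groups did not overlap moved as well. After median-of-ratios scaling, 1 of 9 (HBB) lay wholly below the fetal values, against 15.0% of all mRNAs, and 1 of 9 (KLF1) wholly above, against 16.2%. After quantile normalization, 2 of 9 (HBB and HBA2) lay below, against 17.0%, and 1 of 9 (KLF1) above, against 14.9%. At equal sums 4 of 9 (HBB, HBA2, ALAS2 and GATA1) lay below, against 28.2%, and 0 of 9 above, against 6.90%.

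**Figure D4:**
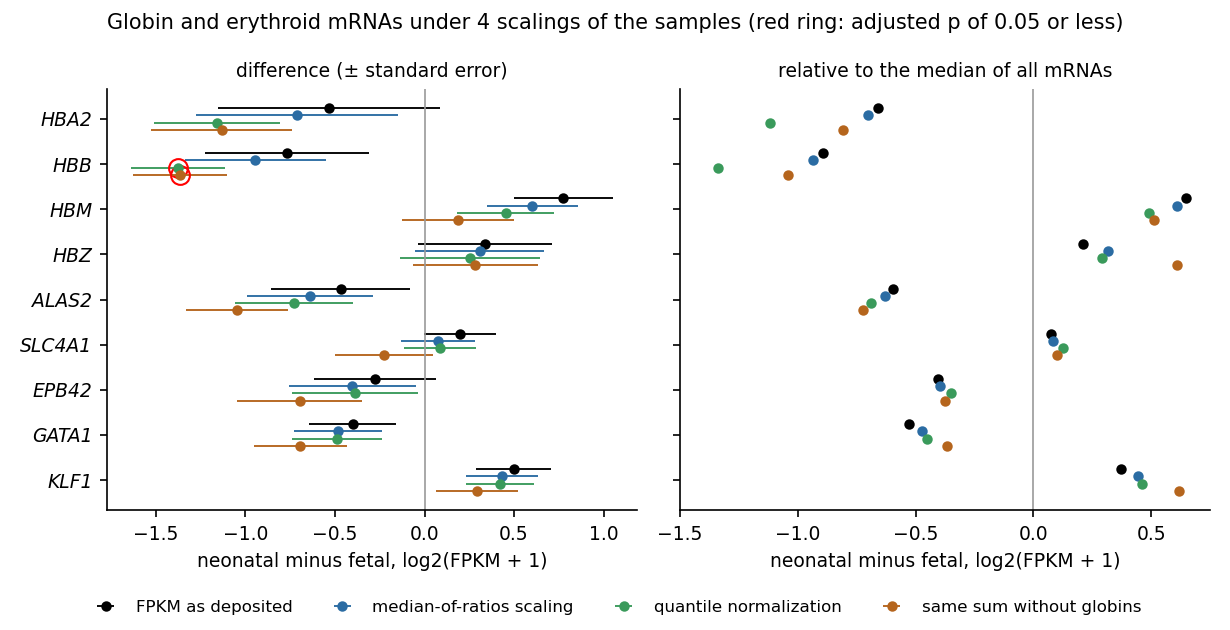
Left, the neonatal minus fetal difference in log2(FPKM + 1) with its limma standard error for each of the 9 genes under 4 scalings of the samples. Right, the same difference minus the median of all mRNAs under that scaling; red rings mark adjusted p values of 0.05 or less, which HBB alone reached, under quantile normalization and at equal sums.

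Other genes of the red cell were read from the same fit. Of 69 genes on 5 lists, 38 had a row under their symbols. Past the threshold 1 of these was higher and 1 lower after birth, beside 5.41% and 1.45% of all mRNAs. Their median log2 difference was 0.066. The list of other globin-family genes, with HBE1, HBQ1, MB and CYGB among them, had 0 of 9 genes with a row under their symbols. Many rows carry no symbol, so a listed gene without a named row may still be in the table. SLC14A1, the urea transporter that carries the Kidd blood group, stood at 0.00929, 0.102 and 0 FPKM before birth and at 1.58, 1.71 and 0.706 FPKM after it. Its log2 difference was 1.14 (adjusted p = 0.0359 in limma) and depended on the pseudocount, at 1.73 with 0.5 and 3.37 with 0.1. It is among the 5 of the 38 genes that exceeded 0.5 FPKM in neonatal samples alone, as KLF1 did. FAXDC2, a fatty acid hydroxylase-domain protein, fell from 18.0, 11.004 and 18.0 FPKM to 2.85, 5.21 and 6.18 FPKM. The groups did not overlap, and the log2 difference was -1.55 (adjusted p = 0.0270 in limma). On deposited FPKM every sample left out in turn ended the call for FAXDC2. Its adjusted p then lay between 0.0518 and 0.106 and its difference between -1.77 and -1.29. At equal sums FAXDC2 passed with any sample left out (adjusted p from 0.0235 to 0.0423 in limma). Under median-of-ratios scaling and quantile normalization it passed without Fetal2, Neonatal1 or Neonatal3, but not without Fetal1, Fetal3 or Neonatal2. SLC14A1 on deposited FPKM passed without Neonatal3, at 0.0336, and lay between 0.0692 and 0.117 without 1 of the others. With all samples at equal sums its adjusted p was 0.0648.

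Of 7 further measured enzymes of heme synthesis, 6 had a higher neonatal mean, as did 59.9% of all mRNAs on deposited FPKM, and no test against ALAS2 was made. In limma 0 passed the threshold, and 1 of 7 had an unadjusted p under 0.05, against 24.2% of all mRNAs. This was UROD, uroporphyrinogen decarboxylase, at 27.7, 22.6 and 29.1 FPKM before birth and 39.7, 48.2 and 53.2 FPKM after it, without overlap (log2 difference 0.80, adjusted p = 0.0533). UROD passed without Neonatal1 (0.92, adjusted p = 0.0460) and among mRNAs above 1 FPKM in at least 3 samples (adjusted p = 0.0489). ALAS1, the form of the first enzyme found in all tissues, was not past the threshold either, with a log2 difference of 0.31. FECH, which inserts the iron, had the lowest difference of the list, -0.13. Every cell makes heme, so these enzymes are not particular to red cells.

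On the list of the red cell membrane and skeleton, 9 of 20 genes had a row, with a median log2 difference of 0.23, and DMTN had the lowest, -0.17. Of 8 measured transcription factors of the erythroid line, 0 passed the threshold in limma, and 2 had an unadjusted p under 0.05, a share close to the 24.2% of all mRNAs. LYL1 had the highest log2 difference, 0.88, and MYB, a factor of early progenitors, the lowest, -0.23. Of 14 genes for iron supply and the red cell cytoplasm, FAXDC2 alone passed the threshold. BLVRB, a biliverdin reductase abundant in red cells, had the highest difference of that list, 0.96 (adjusted p = 0.264 in limma), and the transferrin receptor TFRC had one of -0.026.

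Markers of other cells in blood and vessels were read beside these genes. Of 12 markers of circulating leukocytes, 9 had a row and 3 were higher past the threshold, against 5.41% of all mRNAs: S100A12, S100A9 and S100A8, calcium-binding proteins of neutrophils and monocytes, with log2 differences of 3.72, 3.15 and 2.81. Their adjusted p values in limma were 0.00435, 0.00197 and 0.00254. At equal sums their differences were 3.12, 2.58 and 2.22 (adjusted p = 0.00506, 0.00314 and 0.00172). On deposited FPKM each also passed with any sample left out, the largest adjusted p being 0.0441, for S100A12 without Fetal2. MS4A1, a marker of B cells, had the lowest difference of the list, -0.57 (adjusted p = 0.159), from below 1 FPKM in every sample. The summed FPKM of the 9 markers lay between 96.7 and 172 in the fetal and between 861 and 1365 in the neonatal samples. Of 10 platelet and megakaryocyte markers, 3 had a row, while PF4, ITGA2B and GP9 had none under their symbols. TUBB1, the tubulin of platelets, was higher, from 1.59, 1.19 and 0.847 FPKM to 6.90, 3.98 and 4.11 FPKM (log2 difference 1.42, adjusted p = 0.0217 in limma). Leaving out Neonatal1 kept this call (adjusted p = 0.0429), whereas leaving out each other sample ended it (0.0643 to 0.105), as did equal sums (0.105). The summed level of the platelet markers lay between 2.57 and 4.74 FPKM before birth and between 7.96 and 11.3 FPKM after it. In both lists the summed level was higher after birth without overlap. A higher sum was not particular to blood cells, as the FPKM summed over all mRNAs was also higher in each neonatal library. That sum lay between 339491 and 471220 in the fetal and between 491548 and 777982 in the neonatal samples. The leukocyte sum differed by a larger factor than this. Endothelial markers summed to 464 to 587 FPKM before and 639 to 871 FPKM after birth. Of these 6 markers, however, 4 had lower neonatal means, with a median log2 difference of -0.25. The higher sum came with CLDN5, at 198 to 265 FPKM before and 377 to 617 FPKM after birth. For lung epithelial markers the sums before and after birth were 4999.5 to 5879 and 6452 to 11849 FPKM. For heme synthesis enzymes they were 75.9 to 89.6 and 97.9 to 124 FPKM. The part of leukocytes and platelets in the HBM, KLF1 or GATA1 values was not tested.

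Endothelial markers, which the vessel walls carry, did not pass the threshold: 0 of 6 in limma, with 3 at an unadjusted p under 0.05, against 24.2% of all mRNAs. PECAM1 stood at 129.6 ± 10.3 and 134 ± 10.245 FPKM (SD, n = 3 each), and EMCN had the lowest log2 difference of the list, -0.74, and CLDN5 the highest, 1.197. Of the 6 measured lung epithelial markers, 0 passed, with 1 at an unadjusted p under 0.05, and their differences ran from -2.82 for SCGB1A1 to 0.97 for SFTPA1. The value for SCGB1A1 rested on Neonatal2, at 0.213 FPKM against 62.2 and 62.0 FPKM in the other neonatal samples, and was -0.92 without it. Of 10 genes for the clearance of hemoglobin and heme, 3 had a row. The ferritin heavy chain FTH1 had the highest difference among them, 0.92 (adjusted p = 0.120 in limma), and the ferritin light chain FTL the lowest, -0.20.

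**Figure D5:**
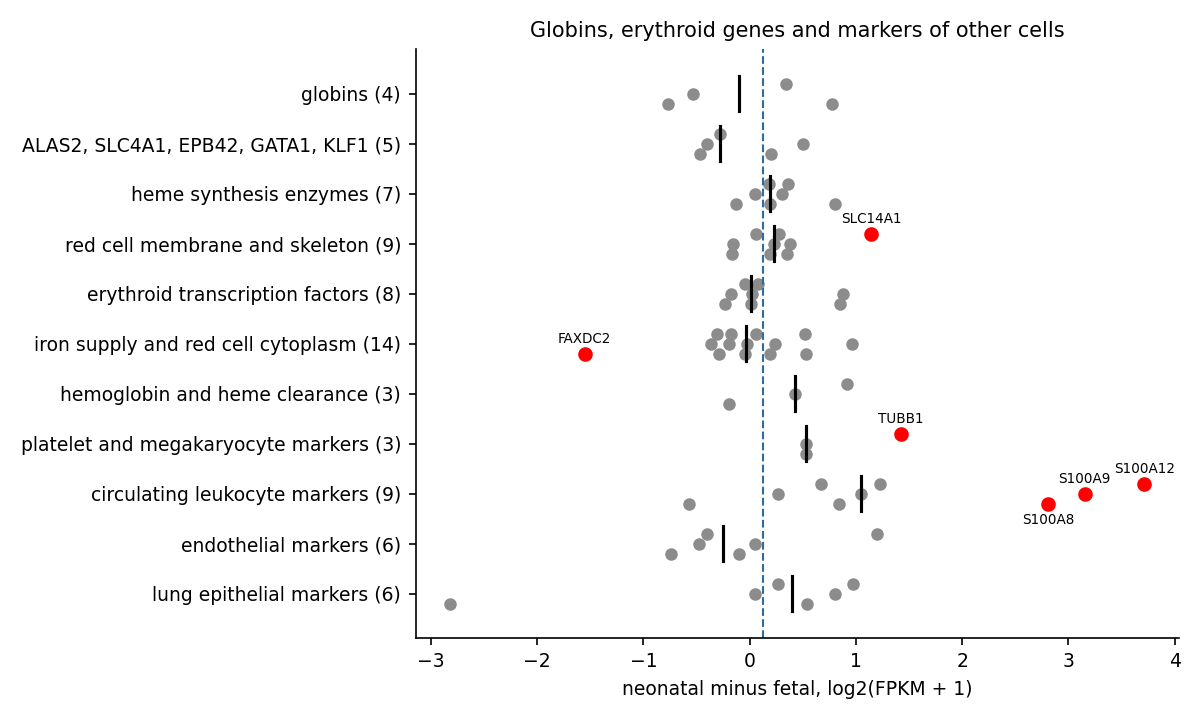
Neonatal minus fetal difference in log2(FPKM + 1) for each measured gene, 1 row for each list with the number of measured genes in brackets. Black bars are list medians, the dashed line is the median of all mRNAs at 0.13, and red points are genes with an adjusted p of 0.05 or less, of which none is a globin or 1 of the 5 other erythroid genes named at the outset.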

How the data were processed

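The authors depleted ribosomal RNA from total lung RNA and sequenced stranded libraries. Values are FPKM, which the authors computed with Cufflinks 2.2.1 after mapping to Sscrofa10.2 with TopHat 2.1.0, and they deposited mRNAs with FPKM above 0.5 in at least 1 sample. All 6 value columns of the mRNA table matched a sample by name. Symbols came from a reference table for 9478 identifiers. For 362 more, HBA2 among them, they came from the authors' list of mRNAs called differentially expressed in these samples. HBA2 thus carries a name here through that list. The reference table belongs to a later assembly, Sscrofa11.1, and was used for names and gene order alone. The lncRNA table and the authors' own fold changes and q values were not used.

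Values were fitted as log2(FPKM + 1) in limma 3.58.1 (R 4.3.3) with a variance trend over all mRNAs. Python 3.11.15 (numpy 2.4.6, pandas 2.3.3) gave ratios, shares and likeness, and matplotlib 3.10.9 the plots. Tables of 14579 mRNAs were simulated for this comparison, each with 200 shifted genes. The fit found 0 of 200 at a shift of 1 log2 unit, 189 of 200 at 2 and 199 of 200 at 4. In the real fit 1001 mRNAs passed, so its adjustment was less strict than in these tables. Differences near 1 could pass there, as for DDX23 (0.95, adjusted p = 0.0230 in limma) and ITGA5 (1.06, 0.0149). They did not always pass, as for TSPO (0.98, 0.170). The authors report the mapped reads of each library, but the table holds no read counts for single mRNAs. Each p value weighs a difference against a variance taken from the spread between these animals and the trend over all mRNAs. The genes and lists were chosen with earlier results of these data known. Named were all genes chosen by symbol, list genes past the threshold (at most 6 a list) or otherwise the highest and lowest of a list, and the 5 mRNAs nearest to HBB and to ALAS2. A few others, among them ALAS1, TFRC and PECAM1, were named after their values were seen. Alternatives were pseudocounts of 0.5 and 0.1, FPKM above 1 in at least 3 samples, 3 scalings, no variance trend, a replicate block, and each sample left out.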

Additional observations from a re-analysis of the deposited data

How the results depend on the processing

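The number of the 9 genes past the threshold was 0 under all alternatives but quantile normalization and equal sums without the globins, where it was 1 (HBB). It was 0 with any sample left out. Of the other erythroid genes, 2 passed, and between 0 and 1 with a sample left out on deposited FPKM: UROD without Neonatal1 and SLC14A1 without Neonatal3. At equal sums 2 passed, FAXDC2 and BNIP3L (-0.86, adjusted p = 0.0429 in limma), and under the stricter filter FAXDC2 and UROD. With the replicate number as a block 0 passed, and 401 of all mRNAs against 1001. With a sample left out, between 196 and 944 of all mRNAs passed. The numbers come from different sows, and deviations of samples with the same number correlated at -0.0407, -0.00434 and 0.000466, and no sample correlated best with its own number, so the numbers do not pair the samples, and the block changed no call among the 9 genes. The median of the globins, -0.097, was -0.45 after quantile normalization and -0.47 at equal sums, and between -0.40 and 0.19 with a sample left out. The median of the 5 other genes, -0.28, was -0.69 at equal sums, 0.089 without Fetal3, and between -0.45 and 0.089 over all samples left out. The difference in the globin share, -0.823 percentage points, was -1.27 without the other mRNAs among the 100 highest, and between -1.10 and -0.576 with a sample left out. The cause of these shifts was not tested.

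Of 124 values for single genes, 119 kept direction and side of the threshold, and HBB passed it under 2 scalings. Reversed were SLC4A1, -0.23 at equal sums, HBZ, -0.075 without Neonatal2, and EPB42, 0.089 without Fetal3. With a sample left out HBZ ranged from -0.075 to 0.58 and EPB42 from -0.48 to 0.089. HBZ and KLF1 have no value under the stricter filter, which removes them. With samples left out under the 3 scalings, an alternative added once the values were known, 13 of 162 values reversed: HBM at equal sums without Fetal3 or Neonatal1 (-0.095 and -0.050), HBZ without Neonatal2 (-0.081, -0.15 and -0.083), and SLC4A1 at equal sums (-0.20, -0.22, -0.26, -0.45, -0.14 and -0.075) and without Neonatal1 under the other scalings (-0.077 and -0.037). HBZ, KLF1, GATA1 and SLC14A1 lie near or below 1 FPKM, where the pseudocount shrinks differences: with a pseudocount of 0.1 KLF1 stood at 1.23.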
